A study of Mus musculus with 14 samples.

Results

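The Nkx1, Nkx3 and Nkx6 genes are homeobox genes of the NK class, and the 6 mouse members Nkx1-1, Nkx1-2, Nkx3-2, Nkx6-1, Nkx6-2 and Nkx6-3 were examined in a list of H3K27me3 sites from immortalised mouse embryo fibroblasts (iMEF). The 6 genes are among 21938 protein-coding genes annotated on the assembled chromosomes, and 101 of the 153983 sites of the list lay within 50 kb of 1 of them. The genes were chosen by measured values of the same list, namely that every Nkx gene had a site of at least 2 kb at its transcription start site (TSS), and that a site of 73.8 kb without any annotated gene had Nkx1-1 as its nearest protein-coding gene. The widths and covered shares below are therefore a description of the members, without tests.

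The sites came from ChIP-seq of iMEF clone NG3, a single clone obtained by limiting dilution. In all groups, controls included, endogenous Ash2l had been inactivated by a Cre-ER recombinase, and the cells depended on a lentivirally expressed FKBP-HA2-ASH2L, in which human ASH2L carries a tag that the PROTAC dTAG-13 binds and directs to degradation. The 12 H3K27me3 libraries comprised 2 replicates each of control cells and of cells exposed to dTAG-13 for 30 min, 2 h, 4 h, 8 h or 16 h. The 2 input libraries came from control cells and from cells exposed to dTAG-13, the latter with no exposure time in its title. The deposited list combines the sites of all samples as bare positions, so it gives no value of a single library or time point, and the depth behind each site is unknown. Changes of these sites at each time point against control were not analysed here.

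H3K27me3, the trimethylation of lysine 27 of histone H3, is set by Polycomb repressive complex 2 and is known from genes that are kept silent, among them many genes of developmental transcription factors. Polycomb complexes are often recruited to CpG-rich promoters, from which the mark can extend over neighbouring nucleosomes. KMT2 complexes, of which ASH2L is a subunit, methylate lysine 4 of the same histone and oppose Polycomb at many promoters. NK homeobox proteins bind DNA and specify cell types of the neural tube, the axial skeleton and the gut.

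Upstream sequences of 3 genes and a stretch of the geneless site show the bases that the sites covered. They are the 250 bases before the RefSeq start (GRCm38.p6), printed 5′ to 3′ on the strand of the gene, with each CpG in capitals. RefSeq promoter entries were found for 5 of the 6 genes, without Nkx6-3. The sequences of Nkx1-1, Nkx1-2 and Nkx6-2 are shown because the 250 bases held no annotated exon of their gene. They lie at chr5:33434091-33434340, chr7:132599638-132599887 and chr7:139582798-139583047, all on the minus strand. The last sequence is the 250 bases of the geneless site with the most CpG, at chr5:33540304-33540553 on the plus strand.
Nkx1-1 upstream: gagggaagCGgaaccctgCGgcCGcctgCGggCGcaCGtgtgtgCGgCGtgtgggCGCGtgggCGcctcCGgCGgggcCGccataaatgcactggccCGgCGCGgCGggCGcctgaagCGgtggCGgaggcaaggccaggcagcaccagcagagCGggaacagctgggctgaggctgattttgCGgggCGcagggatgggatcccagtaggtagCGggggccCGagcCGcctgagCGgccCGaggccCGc
Nkx1-2 upstream: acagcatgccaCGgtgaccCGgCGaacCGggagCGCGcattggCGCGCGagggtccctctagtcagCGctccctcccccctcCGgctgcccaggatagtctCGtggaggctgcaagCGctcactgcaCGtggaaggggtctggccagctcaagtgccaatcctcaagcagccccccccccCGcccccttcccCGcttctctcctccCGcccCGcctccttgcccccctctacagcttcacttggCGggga
Nkx6-2 upstream: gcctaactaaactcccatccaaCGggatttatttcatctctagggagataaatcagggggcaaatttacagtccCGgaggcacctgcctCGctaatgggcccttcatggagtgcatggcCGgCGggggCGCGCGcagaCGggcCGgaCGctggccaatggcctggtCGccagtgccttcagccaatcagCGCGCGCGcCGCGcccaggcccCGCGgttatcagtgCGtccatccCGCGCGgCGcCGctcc
Geneless site: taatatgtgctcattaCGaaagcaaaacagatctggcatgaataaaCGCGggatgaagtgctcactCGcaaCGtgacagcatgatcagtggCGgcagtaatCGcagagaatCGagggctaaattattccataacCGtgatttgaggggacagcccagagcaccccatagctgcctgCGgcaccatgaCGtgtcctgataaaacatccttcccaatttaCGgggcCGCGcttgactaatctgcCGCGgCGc
All 250 bases of each sequence lay inside an H3K27me3 site. Nkx1-1 had 30 CpG in these bases, Nkx6-2 had 26 and Nkx1-2 had 19, compared with a median of 6 over 32851 promoter entries. The richest stretch of the geneless site had 17, fewer than each of the 3 upstream sequences. The sequences of Nkx6-1 and Nkx3-2, not printed, had 30 and 21 CpG. Searched on both strands, TATAAA was found in none of the 5 upstream sequences and in 12.4% of all entries. CCAAT occurred 2 times in Nkx1-2 and 2 times in Nkx6-2, was not found in the other 3, and was present in 33.8% of entries. TAATTA, a core sequence bound by many homeodomains, was found in none of the 5 and in 4.84% of entries.

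At the transcription start sites, each of the 6 genes had an H3K27me3 site within 1 kb, compared with 31.5% of protein-coding genes (6912 of 21938). Each had a site of at least 2 kb there, the value by which the Nkx genes had been picked out, and the background of this count was 16.1%. A site of at least 5 kb was present at 5 of the 6, all except Nkx6-3, against 8.69% of protein-coding genes, and a site of at least 10 kb at 4 of the 6, against 3.82%. The median of the widest site at the start was 11583 bp over the members. It was 0 bp over all protein-coding genes, of which most had no site there, and 2126 bp over those with a site.

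Nkx1-1 and Nkx1-2 are the mammalian genes related to slouch of Drosophila and were formerly named Sax2 and Sax1. Nkx1-2 is known from the caudal end of the embryo, where cells give rise to spinal cord and mesoderm. The start of Nkx1-1 (ENSMUSG00000029112.5, GRCm38 chr5:33430734-33433976, minus strand) was covered by a site of 17430 bp at chr5:33429006-33446435, which began 12459 bp upstream of the TSS and ended 4970 bp downstream of it. At Nkx1-2 (ENSMUSG00000048528.7, chr7:132594878-132599637, minus strand) the site was 13011 bp wide, at chr7:132594916-132607926, from 8289 bp upstream to 4721 bp downstream. Both sites reached further upstream than downstream, and both covered the window of 1 kb on either side of the TSS entirely.

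Nkx3-2, also named Bapx1, is required for the vertebral bodies and for the jaw joint and delays the maturation of chondrocytes. The gene (ENSMUSG00000049691.8, chr5:41761483-41764501, minus strand) had the widest start-site interval of the 6, 22224 bp at chr5:41742780-41765003. Its position was opposite to that at Nkx1-1, since it began 502 bp upstream of the TSS and extended 21721 bp downstream, far beyond the gene. A separate site of 2696 bp at chr5:41765312-41768007 lay on the upstream side. With the gap between them, 84.6% of the TSS window was covered, the lowest value among the members.

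Nkx6-1 and Nkx6-2 act in the ventral neural tube, where they promote motor neuron and interneuron fates, and Nkx6-1 is also needed for the beta cells of the pancreas, while Nkx6-2 is expressed in oligodendrocytes. Nkx6-3 is known from gastrin-producing cells of the stomach. Nkx6-1 (ENSMUSG00000035187.10, chr5:101658139-101664996, minus strand) had a site of 8765 bp at chr5:101660802-101669566, which lay almost evenly about the start, with 4570 bp upstream and 4194 bp downstream. Nkx6-2 (ENSMUSG00000041309.17, chr7:139579376-139582797, minus strand) had a site of 10154 bp at chr7:139580289-139590442, with 7645 bp upstream and 2508 bp downstream. The site at Nkx6-3 (ENSMUSG00000063672.7, chr8:23153269-23158948, plus strand) was the narrowest, 2166 bp at chr8:23152014-23154179, from 1255 bp upstream to 910 bp downstream. It was the one closest to the 2 kb by which the family had been noticed, and it covered 95.5% of the TSS window. With windows of 2 kb on either side of the start, the widest site at Nkx6-3 was instead the 4375 bp site over the later part of its body, at chr8:23155085-23159459. The windows of Nkx6-1 and of both start sites of Nkx6-2 were covered entirely. Windows without any uncovered base thus occurred in 4 of the 6 genes, and in 5.44% of protein-coding genes.

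**Figure D1:**
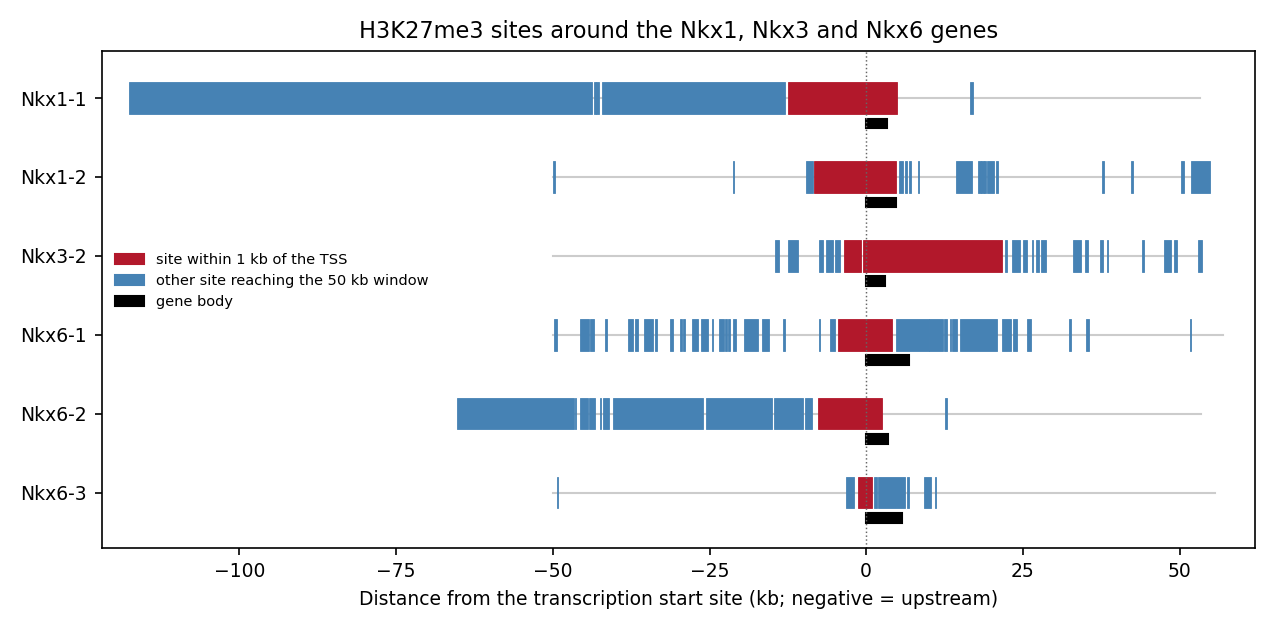
H3K27me3 sites within 50 kb of each Nkx gene, drawn to scale against the distance from the transcription start site in kb, with the direction of transcription to the right. Bars are the sites of the combined list and the gene body is drawn below them. Sites lie on both sides of Nkx6-1, almost only upstream of Nkx1-1 and Nkx6-2, and mostly downstream of Nkx3-2.

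The gene bodies were covered almost as fully as the starts. The covered share was 100% in Nkx1-1 and Nkx3-2, 99.2% in Nkx1-2, 92.7% in Nkx6-3, 91.7% in Nkx6-1 and 73.3% in Nkx6-2. All 6 bodies thus had at least 50% of their bases in sites, compared with 9.35% of protein-coding genes. Of 16 exons, 14 lay entirely within sites. In Nkx1-2 exon 2, the last, 98.7% was covered. In Nkx6-2 the last exon, of 246 bp at chr7:139579376-139579621, had no covered base, and the annotated end of Inpp5a, which is transcribed towards it from the opposite strand, overlaps this exon. Inpp5a, which encodes an inositol phosphate phosphatase, had no site at its start and 0.301% of its body in sites. The edge of the covered region thus fell within Nkx6-2, in its 3′ part.

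Within 50 kb of the gene the members differed more than at their starts. Any site at all was present in this range of 88% of protein-coding genes and of all 6 members. The covered share of the gene and its surroundings was 52.2% for Nkx1-1 and 46.1% for Nkx6-2. It was 40.1% for Nkx6-1, 36.4% for Nkx3-2, 24.0% for Nkx1-2 and 9.64% for Nkx6-3. At least 20% was covered in 5 of the 6, all except Nkx6-3, and in 19% of protein-coding genes. The median of 38.2% over the members compared with 3.81% over all protein-coding genes, and with a 90th percentile of 32.2%. Nkx6-3 was closest to the rest of the genome in this measure, and still had a higher covered share than 66.3% of protein-coding genes. The combined list holds no values per replicate, so no error can be given for these shares, and the order of neighbouring members rests on the distance chosen. Within 25 kb Nkx3-2 had the highest share, 61.2%, and within 100 kb it had 18.9% and ranked below Nkx1-2 with 27.7%. Nkx6-3 was the lowest in all 7 settings compared, with 17.8% within 25 kb and 5.15% within 100 kb.

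**Figure D2:**
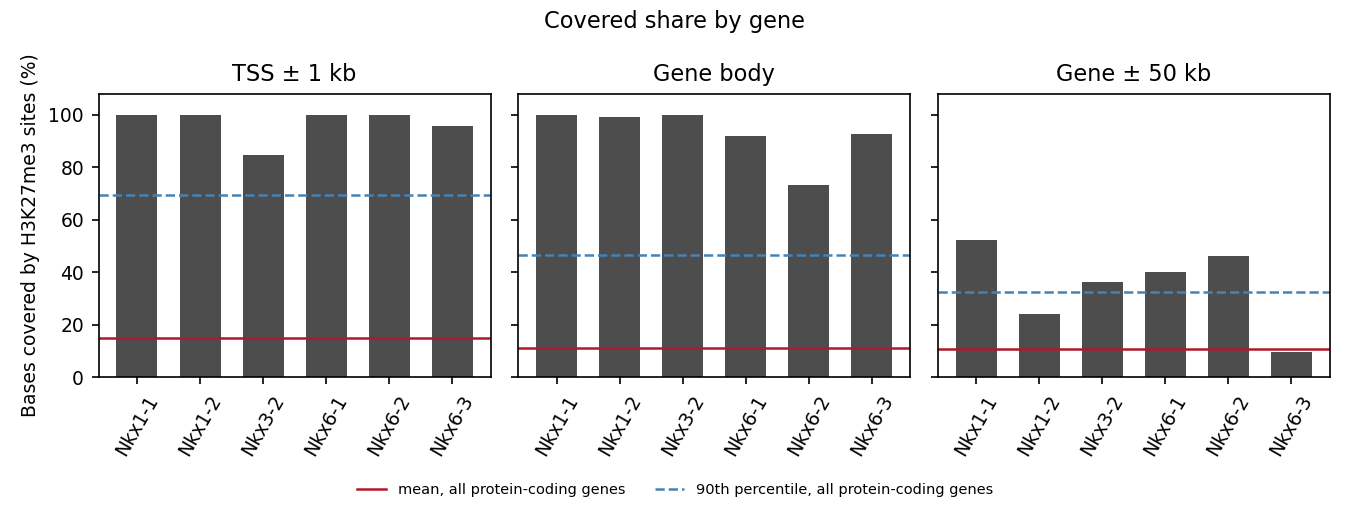
Covered share in percent of the start site windows, the gene body and the surroundings within 50 kb for each Nkx gene, as bars, with lines for the mean and the 90th percentile of all protein-coding genes. All 6 genes are above 70% at the start and in the body, while the surroundings range from 9.64% at Nkx6-3 to 52.2% at Nkx1-1.

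A high covered share did not come with many sites. Nkx1-1 had the highest share and the fewest sites, 6, whereas Nkx6-1 had 36 sites, the most of all members. Nkx3-2 had 21, Nkx1-2 had 18, Nkx6-2 had 12 and Nkx6-3 had 8. Over the 101 sites the median width was 530 bp, compared with 455 bp over the whole list. Sites of at least 10 kb made up 8.91% of the 101, which are 9 sites, and 0.944% of the list. Sites of exactly 200 bp, the smallest width present, made up 8.91% as well, compared with 12.6% of the list. The centres of 66 of the 101 sites were intergenic, those of 30 were in introns and those of 5 in exons. The limit of 50 kb left out a site of 658 bp at 50493 bp from Nkx1-2 and a site of 1063 bp at 50564 bp from Nkx6-1, and it included a site of 720 bp at 49909 bp from Nkx3-2 and a site of 266 bp at 49692 bp from Nkx1-2.

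The covered sequence was distributed unevenly around 3 of the 6 genes, Nkx1-1, Nkx6-2 and Nkx3-2. Upstream of Nkx1-1, 97.2% of the 50 kb was covered and downstream 4.17%. Nkx6-2 had 89.9% upstream and 0.4% downstream, the latter being a single site of 200 bp. Nkx3-2 was reversed, with 15.7% upstream and 53.2% downstream. Nkx6-1 with 40.1% and 33.0%, Nkx1-2 with 19.8% and 21%, and Nkx6-3 with 5.66% and 4.19% had similar shares on both sides. In bins of 5 kb, all 6 genes were covered by more than 50% in the bin before and in the bin after the start, with means of 86.8% and 87.4%. The means over all protein-coding genes in these bins were 13.7% and 14.0%. Beyond 25 kb downstream no member had a bin covered by more than 50%, and the mean over the members was between 2.44% and 8.48%, in each bin below that of all genes.

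**Figure D3:**
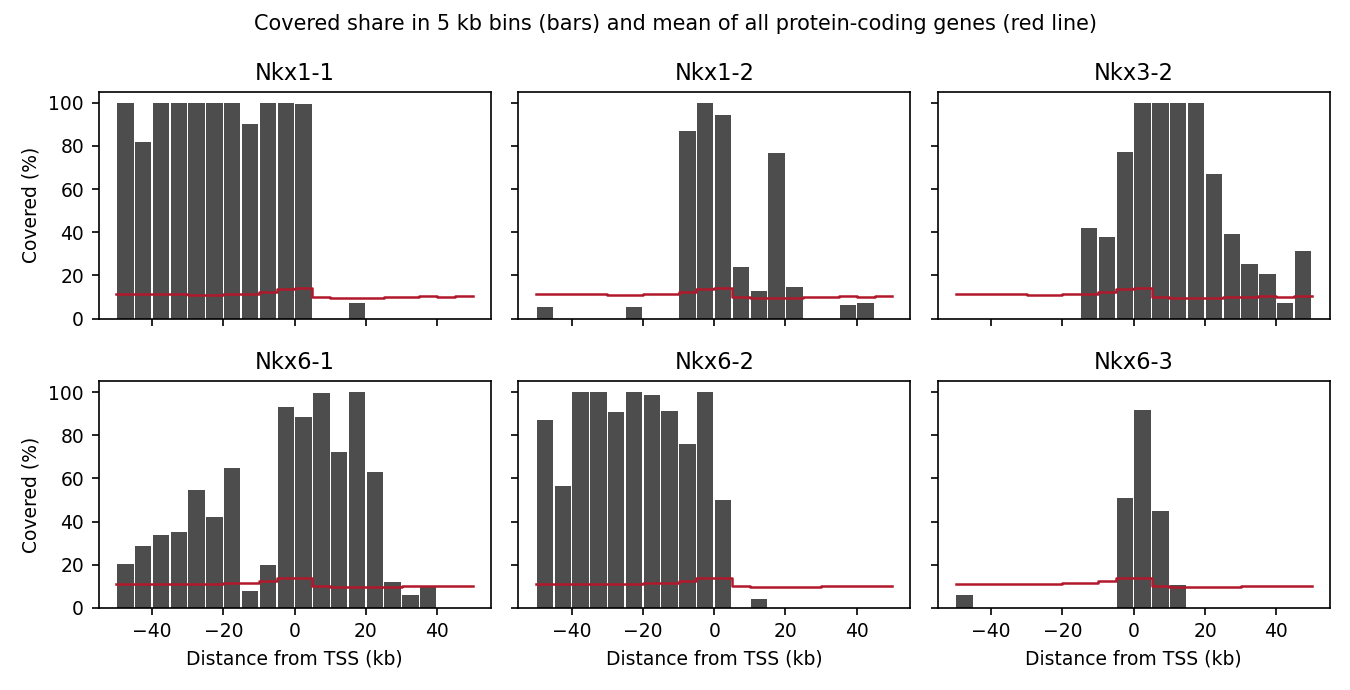
Covered share in percent in bins of 5 kb against the distance from the transcription start site in kb, for each Nkx gene and as the mean over all protein-coding genes. The 6 genes lie above 50% in both bins next to the start, and beyond 30 kb upstream only Nkx1-1 and Nkx6-2 do so.

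The gaps between neighbouring sites were short, so sites separated by less than 1 kb were also joined to stretches. The stretch over the start of Nkx1-1 was then 129.5 kb wide. It consisted of 10 sites that covered 98.0% of it, extended from 124.5 kb upstream to 4.97 kb downstream of the TSS, and was the 12th widest of 83203 such stretches in the genome. At Nkx6-2 the stretch was 67.7 kb wide, of which 65.2 kb lay upstream, and at Nkx3-2 it was 36.3 kb wide, of which 28.7 kb lay downstream. Nkx6-1 had a stretch of 29.9 kb, Nkx1-2 of 16.7 kb and Nkx6-3 of 10.1 kb. Even the stretch of Nkx6-3 was wider than 95.6% of all stretches. With gaps of less than 5 kb joined, Nkx6-2 reached 128.8 kb and Nkx1-1 136.2 kb, so that both were far wider than the other 4, of which the widest was Nkx3-2 with 53.1 kb.

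**Figure D4:**
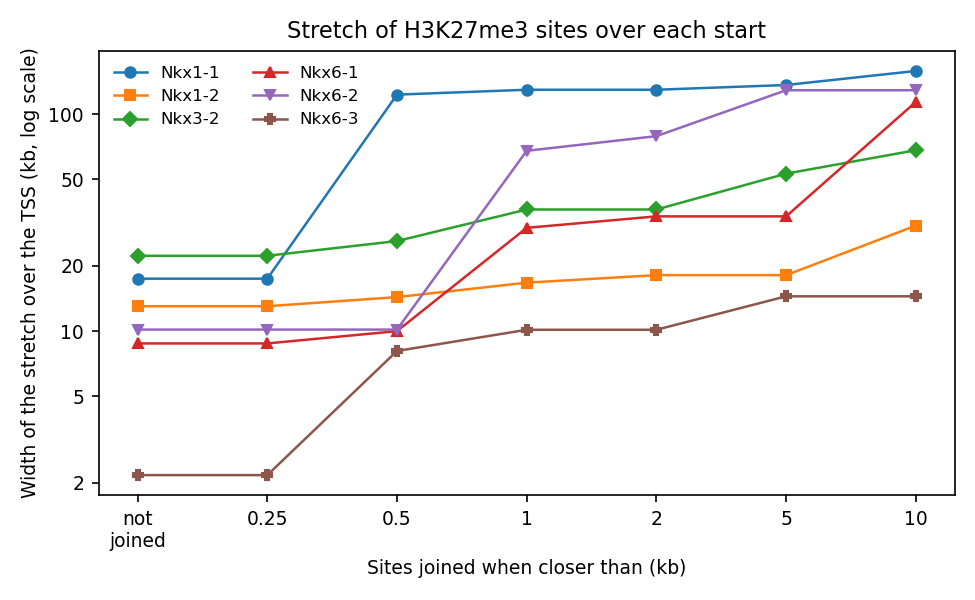
Width in kb (log scale) of the H3K27me3 stretch over the start of each Nkx gene for single sites and for sites joined over gaps of increasing size. Nkx1-1 rises from 17.4 kb to 129.5 kb when gaps of less than 1 kb are joined, and Nkx6-2 from 10.2 kb to 67.7 kb.

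The Nkx1-1 stretch is made up mainly of 3 sites, the start-site interval of 17430 bp, a site of 29273 bp at chr5:33446919-33476191 and the geneless site of 73800 bp at chr5:33477731-33551530. Only small sites of 414 bp and 207 bp lie in the gap between the latter pair. The geneless site was the fourth widest of the list. It overlapped no gene of GENCODE M21 and no RefSeq gene. Of 1452 sites of at least 10 kb, 254 (17.5%) overlapped no GENCODE gene, and it was the widest of these, the next reaching 37.3 kb. It lay 43754 bp upstream of Nkx1-1 and 48816 bp from the end of Fam53a, which had no site at its start and none in its body. A lincRNA gene, Gm43851, lies between Nkx1-1 and the geneless site and was covered entirely by the start-site interval of Nkx1-1. Since 6246 bp of the geneless site fell within 50 kb of Nkx1-1, the covered share of Nkx1-1 was also computed without it, and was then 46.2%, compared with 46.1% at Nkx6-2.

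Base composition had not been used to choose the genes. Around the start (500 bp on either side), 5 of the 6 genes were CpG-rich, defined as a GC content of at least 50% and an observed to expected CpG ratio of at least 0.6. Nkx1-1 had a GC content of 71.7% and a ratio of 0.917, and Nkx6-2 had 64.0% and 0.978. In Nkx6-1 the values were 64.5% and 0.849, in Nkx3-2 58.7% and 0.686, and in Nkx1-2 59.1% and 0.641. Nkx6-3, the gene with the narrowest site, was the exception with 55.4% and 0.262. Over all protein-coding genes the medians were 54.7% and 0.552, and 9738 (44.4%) were CpG-rich. A CpG-rich start was not in itself accompanied by a site more often, since 25.5% of these 9738 genes had a site at a start and 8.62% one of at least 5 kb, against the 31.5% and 8.69% of all genes given above.

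Within 50 kb, the covered bases had a higher GC content than the uncovered ones at all 6 genes. The medians over the members were 50.2% in sites and 46.3% outside. The CpG ratio was also higher in sites at all 6, with medians of 0.303 and 0.215, and the share of repeat-masked bases was lower at all 6, with medians of 16.1% and 23.1%. The same directions held for the whole list, with a GC content of 48.6% in sites and 41.2% outside, a ratio of 0.233 and 0.186, and a repeat-masked share that was 37.5% outside sites and lower in them. The gaps inside the joined stretches had a lower GC content and more repeat-masked bases than the sites at all 6 genes, by differing amounts. In the 9 gaps of the Nkx1-1 stretch 36.8% of the bases were repeat-masked, compared with 14.2% in its sites, and at Nkx6-2 the shares were 35.9% and 12%. The difference was smallest at Nkx3-2, with 19.5% in gaps and 14.4% in sites, followed by 25.2% and 18.5% at Nkx1-2, 27.6% and 18.3% at Nkx6-1, and 34.1% and 14.2% at Nkx6-3. The part of repeats in these gaps was not tested.

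**Figure D5:**
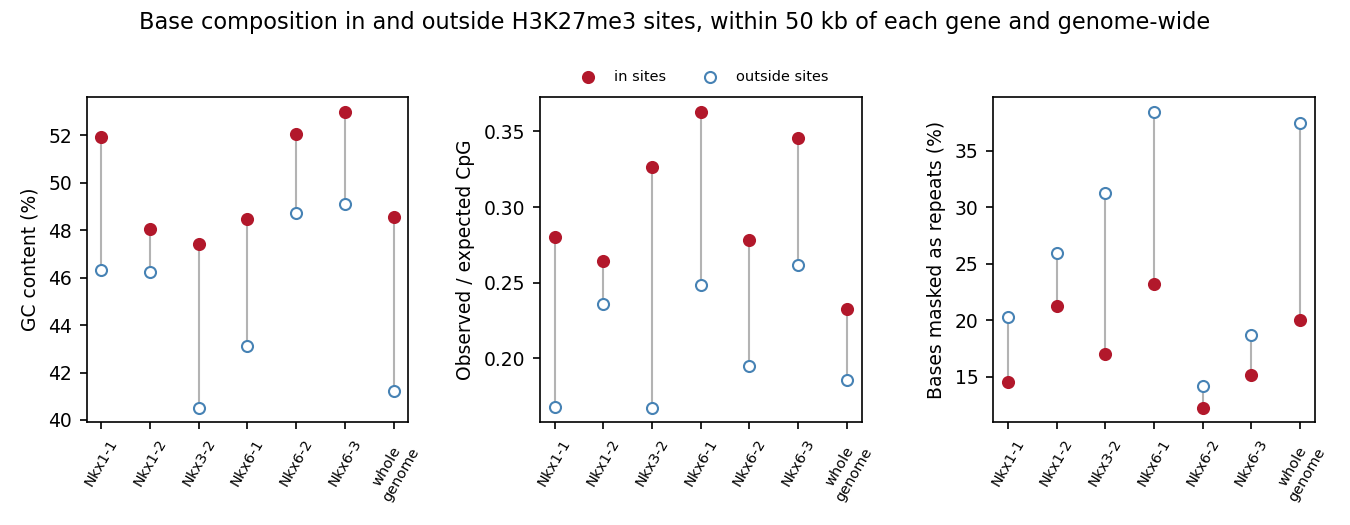
GC content in percent, observed to expected CpG ratio and repeat-masked bases in percent, inside and outside H3K27me3 sites, within 50 kb of each Nkx gene and in the whole genome. For each gene the covered bases have higher GC content and CpG ratio and fewer repeat-masked bases than the uncovered ones.

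Most of the covered sequence was not itself CpG-rich. In bins of 1 kb, 6 of 129 bins of the Nkx1-1 stretch met the definition, 5 of them between 1 kb upstream and 4 kb downstream of the TSS. At Nkx6-2 there were 3 of 67, at Nkx3-2 4 of 36, at Nkx6-1 4 of 29 and at Nkx1-2 2 of 16, and each of these 4 genes had a CpG-rich bin directly at the start. Nkx6-3 had 1 of 9, located 4 kb downstream of its start and inside the gene. None of the 73 bins of the geneless site was CpG-rich, with a median of 12 CpG per kb and a range from 2 to 39. This was shared by 62.5% of the 1452 sites of at least 10 kb, though by none of the sites wider than it. The GC content of the geneless site was 51.5%, and 13.1% of its bases were repeat-masked.

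The neighbouring genes mostly lay outside the stretches. Uvssa, a factor of transcription-coupled DNA repair, lies downstream of Nkx1-1 and had no site at its start. The same was the case for Rab28 and Bod1l on either side of Nkx3-2. Next to Nkx1-2, Oat, which encodes ornithine aminotransferase, had no site at a start, and Lhpp had a small one of 268 bp, its gene beginning 1388 bp from the stretch. A long GENCODE model of Fgfr2, a receptor of fibroblast growth factors, spans the Nkx1-2 locus on the same strand, so that sites there count as intronic, and the Nkx1-2 antisense transcript Gm16764 was covered entirely. Nkx6-1 lies far from other protein-coding genes, with Cds1, 100133 bp upstream, carrying a separate site of 14348 bp at its start. Exceptions were Cfap46, an axonemal protein gene upstream of Nkx6-2, with 86.3% of its body covered and its 3′ part in the Nkx6-2 stretch, and Ank1, the ankyrin of red blood cells, which is upstream of Nkx6-3 and had a site of 19056 bp at 1 of its starts. Gpat4, on the other side of Nkx6-3, had no site.

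The other genes of the NK class and of the tissues in which the members act were taken from lists, of which the counts and medians are a description. They are to be read against the 31.5% of all protein-coding genes with a site at a start and the 16.1% with one of at least 2 kb. All 8 other NK homeobox genes had a site of at least 2 kb, which the choice of the family already entails, and the widest were at Nkx2-5 (21179 bp), a cardiac factor, and Nkx2-2 (20952 bp), a factor of the ventral neural tube and the pancreas. Their median covered share within 50 kb was 32.1%, compared with 38.2% for the 6 members. Of 31 further NK-like homeobox genes, 25 had a site at a start and 22 one of at least 2 kb, with Barx1 (59436 bp) and Vax2 (53217 bp) the widest and Dlx2, Dlx5, Hhex, Hlx, Emx2 and Nanog without a site.

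Among 22 genes of ventral neural tube patterning, in which Nkx6-1 and Nkx6-2 take part, 19 had a site (86.4%, compared with 31.5% of protein-coding genes) and 18 one of at least 2 kb. Pax7 (43850 bp) and Olig2 (33872 bp) had the widest, and Irx3, Irx5 and Gli3 had none. Of 19 genes of the endocrine pancreas and stomach, 15 had a site and 14 one of at least 2 kb, led by Pax6 (30370 bp) and Mnx1 (26433 bp), while Gata6, Sox9 and Gast were among those without a site. Of 10 genes of oligodendrocytes and myelin, 9 had a site, 7 of at least 2 kb, with Olig2 and Olig1 (25573 bp) the widest, and Cnp had none. The sclerotome, cartilage and joint list, which fits Nkx3-2, was the lowest of these, with 10 of 14 genes having a site, 7 of at least 2 kb, and a median covered share of 4.15%, close to the 3.81% of all genes. Barx1 (59436 bp) and Acan (17446 bp) had the widest in this list, and Sox9, Meox1, Gdf5 and Col10a1 had none. Of 15 genes of fibroblasts, 4 had a site (26.7%), a share near the 31.5% of all protein-coding genes, and none had one of at least 2 kb, against 16.1%. The widest of these were at Prrx1 (534 bp) and Pdgfra (437 bp), and the median covered share was 0.548%. These counts are no check of the labelled cell type, for which the list holds no expression values.

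The genes closest to the median pattern of the members, by the Euclidean distance in percentage points over the covered shares of start, body and surroundings, were Erich4, Ano9, Rtn4rl2, Jph4 and Chga. The distances were 0.911, 1.04, 1.38, 1.40 and 1.48 points. All 5 had their start windows covered entirely, with sites at the start between 4333 bp at Erich4 and 10307 bp at Rtn4rl2, and covered shares within 50 kb between 36.9% and 39.1%. None of the 5 is a homeobox gene.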

How the data were processed

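ChIP-seq of H3K27me3 was performed by the authors in 12 libraries of iMEF clone NG3, with 2 input libraries. Reads were trimmed, aligned with BWA to mm10 (GRCm38.p6), filtered with SAMtools, merged over replicates and brought to the lowest coverage of the experiment, and broad peaks were called with MACS2 and combined over all samples. Versions, thresholds and the rule of combination are not given in the sources used here. The deposited list holds positions only (chromosome, start, end), with no count or score per library, so depth is unknown and no test between groups could be made from it. Lists of changed sites by time point were not used here. A region without a listed site may still carry the mark.

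Starts were taken as 0-based and ends as exclusive, since 200 bp was then the smallest width, and positions are printed 1-based. They were compared with GENCODE M21 and RefSeq on GRCm38.p6, in Python 3.11.15 with numpy 2.4.6 and pandas 2.3.3. A gene had a site when a site overlapped 1 kb on either side of any of its start sites, and surroundings reached 50 kb from the gene. Alternatives joined sites closer than 1 kb or 5 kb, required widths of 500 bp or 1 kb, and changed the windows and the overlap. The functions were tested on simulated lists. Members, gene lists and rules of naming (all members and their start-site intervals, neighbours, the 2 widest and up to 6 without a site per list, 5 genes of like pattern) were chosen with earlier results of these data known. A gene of these lists is not reported here by name.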

Additional observations from a re-analysis of the deposited data

How the results depend on the processing

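All 6 Nkx genes had a site at a start, of at least 2 kb, under all 7 alternatives for sites and start windows. Joined sites, the minimum widths and the windows of 2 kb could not have removed such a site. Only the outermost start site and the overlap of at least 200 bp could have lowered this count, by which the genes had been picked out. With sites closer than 1 kb or 5 kb joined, the median widest site at a start over the members was 33113 bp and 43457 bp instead of 11583 bp, and the median number of sites within 50 kb was 5.5 and 2 instead of 15. That number was 7.5 with sites of at least 500 bp only and 6 with sites of at least 1 kb. The share of protein-coding genes with a site at a start, 31.5%, was 24.2% and 20.1% with these minimum widths, 37.2% with windows of 2 kb, 25.3% with the outermost start site only and 30.1% with an overlap of at least 200 bp. Of 177 values of single genes under alternatives, 50 moved by more than 1.5 times, most of them numbers of sites and widths under joining. A reversal was not possible, since widths, covered shares and numbers of sites have no sign. With sites closer than 5 kb joined, Nkx6-1 had the highest covered share within 50 kb, 69.5%, ahead of Nkx3-2 with 60.4%, and with sites of at least 1 kb only, Nkx3-2 and Nkx6-1 changed places at 30.3% and 29.9%. The removal of the geneless site, chosen after seeing the data, left the order of the members unchanged. No paired analysis was possible because values of single libraries were not at hand, and for the same reason leaving out replicates and the planned tests of treated against control cells were not run.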
